A study of Mus musculus with 3 samples.

Results

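Processed pseudogenes are copies of messenger RNAs that were reverse transcribed and inserted elsewhere in the genome, so they lack the introns of the gene they came from, their parent. Abundant housekeeping transcripts, above all those of ribosomal proteins, have left many such copies in the mouse genome. Most have no promoter of their own, but some are transcribed, often from within another gene, and a young copy can differ from its parent at only a few bases, so that a short read may match both. The pseudogenes described here had the biotype processed pseudogene (177) or transcribed processed pseudogene (20) in the deposited table. They were all those whose FPKM averaged at least 5 over 3 libraries. FPKM stands for fragments per kilobase of gene and per 1000000 of the library size that the authors used. The pseudogenes were 197 of the 9773 of these biotypes among 54532 genes in the table.

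The libraries were made from total RNA of mouse hippocampus, a brain region needed for forming memories, at 10 months of age on a C57BL/6 background. WT animals carried no named allele. PS19 mice carry a human mutant tau transgene driven by the mouse prion protein promoter and serve as a model of tau pathology. The third genotype, PS19 Zbp1+-, carries PS19 and is labelled heterozygous for Zbp1, which encodes a sensor of left-handed nucleic acids (Z-RNA and Z-DNA). There was 1 library for each genotype, and neither the number nor the sex of the animals behind it is given in the labels. The values below therefore compare libraries, not genotypes, no p-value was computed, and every interval covers counting error only. Intervals of ratios leave out the choice of library size, which shifts all ratios between the same libraries alike.

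Reads were recovered exactly from FPKM and gene length, and came to 16746085 in WT, 16400328 in PS19 and 17109734 in the library labelled PS19 Zbp1+-. Zbp1 itself had 5 reads in the WT library, 91 in PS19 and 0 in the Zbp1+- library. The last value lay below PS19, but a count of 0 allows up to 3 reads. Beside 5 reads in WT, it cannot tell 1 intact allele, as labelled, from none in the Zbp1+- library. That library also stood apart in other ways. It had 0 reads of Xist against 11062 in WT and 13350 in PS19, and it alone held reads of the Y-linked genes Ddx3y (711) and Eif2s3y (495). Summed FPKM of 8 choroid plexus markers, Ttr among them, was 3139 in WT, 1922 in PS19 and 10.7 in the Zbp1+- library, with no marker at 0. Summed FPKM of 6 markers of hippocampal excitatory neurons was 381, 301 and 584 in the same order, again with none at 0. The higher sum in the Zbp1+- library came from Slc17a7 (206, 172 and 371) and Fibcd1 (37.0, 27.0 and 111), while Neurod6, Prox1, Wfs1 and Spink8 were lower there than in WT. The 5 blood markers summed to 19.0, 15.8 and 3.44. Genes with at least 1 read numbered 24741, 25397 and 21408. Genotype cannot be told apart from sex, choroid plexus content or library in these 3 samples, and fewer cells of a type cannot be told apart from less RNA per cell.

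To show how close the copies are to their parents, the transcript annotated for each pseudogene was aligned to protein-coding transcripts of GENCODE M21. A parent was found for 189 of the 197, on 161 distinct genes, with at least 90% identity over at least 50% of the copy. Median identity was 99.6%, the lowest was 93.6%, and 44 copies were identical to the parent over the aligned length. Cut into windows of 50 bases, 44 copies held no window that differed from all other transcripts, and the median copy had 12.9% of such windows. The following stretches of 120 bases come from copies whose reads differed strongly between libraries. Each pair gives the copy and then the parent 5′ to 3′, capitals mark the substituted bases, and positions count from 1 at the 5′ end of the copy, parent base first.

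Atp6v0c-ps2 (chr6:37806086-37806550, plus strand) copies Atp6v0c (chr17:24163866-24169702), which encodes the proteolipid of the proton-pumping vacuolar ATPase. Bases 51 to 170 hold T111C, the 1 substitution in 465 aligned bases.
Atp6v0c-ps2: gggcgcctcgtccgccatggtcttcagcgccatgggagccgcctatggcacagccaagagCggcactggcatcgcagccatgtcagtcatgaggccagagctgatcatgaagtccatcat
Atp6v0c: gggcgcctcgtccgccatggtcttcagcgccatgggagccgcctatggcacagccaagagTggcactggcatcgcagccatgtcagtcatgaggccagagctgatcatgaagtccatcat
Rps2-ps13 (chrX:52898588-52899469) copies Rps2 (chr17:24718116-24721929), which encodes a protein of the small ribosomal subunit. Bases 12 to 131 hold T60A and A84G, of 7 substitutions in 882 bases.
Rps2-ps13: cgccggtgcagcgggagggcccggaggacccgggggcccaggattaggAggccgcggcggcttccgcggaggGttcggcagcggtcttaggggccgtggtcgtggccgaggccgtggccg
Rps2: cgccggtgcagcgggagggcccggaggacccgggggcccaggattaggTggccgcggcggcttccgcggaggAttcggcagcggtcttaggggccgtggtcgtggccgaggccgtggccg
Rps3a2 (chr14:88123017-88123808) copies Rps3a1 (chr3:86137940-86142702), another gene of the small ribosomal subunit. Bases 529 to 648 hold T534C and A645T, of 4 substitutions in 792 bases.
Rps3a2: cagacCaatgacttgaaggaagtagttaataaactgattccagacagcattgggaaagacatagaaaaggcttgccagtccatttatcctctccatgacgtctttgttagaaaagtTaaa
Rps3a1: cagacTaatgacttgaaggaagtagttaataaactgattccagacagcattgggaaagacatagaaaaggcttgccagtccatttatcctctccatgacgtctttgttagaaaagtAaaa
Gm3375 (chr7:3181093-3181888) copies Psmb5 (chr14:54614119-54618022), which encodes a catalytic subunit of the proteasome. Bases 271 to 390 hold C298T, C307T and T388A, of 8 substitutions and 1 gap base in 796 bases.
Gm3375: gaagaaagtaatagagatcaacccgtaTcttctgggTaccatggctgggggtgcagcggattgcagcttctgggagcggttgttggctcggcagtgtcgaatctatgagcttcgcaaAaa
Psmb5: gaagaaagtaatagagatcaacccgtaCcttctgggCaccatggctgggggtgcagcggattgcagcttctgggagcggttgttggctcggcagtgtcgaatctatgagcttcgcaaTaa
Gm10123 (chr9:96895658-96896147) copies Ppia (chr11:6415443-6419817), which encodes cyclophilin A. Bases 246 to 365 are printed, and the pair holds 0 substitutions in 490 bases.
Gm10123: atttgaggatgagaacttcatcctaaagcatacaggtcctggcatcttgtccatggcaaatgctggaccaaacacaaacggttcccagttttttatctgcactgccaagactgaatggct
Ppia: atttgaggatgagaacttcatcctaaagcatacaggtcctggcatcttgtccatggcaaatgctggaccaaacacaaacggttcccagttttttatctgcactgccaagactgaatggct

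A read that falls wholly inside a run shared by both members of a pair cannot be assigned by its sequence, and in the Gm10123 pair this is true of every read within the copy. How the aligner's multiple matches were counted is not given in the sources used here. A value for a copy is therefore the number of reads the authors' counting gave it, and the split between copy and parent is reported as a quantity of its own.

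Together the 197 pseudogenes took 44323 reads in WT (0.265% of all reads), 36121 in PS19 (0.220%) and 49807 in the Zbp1+- library (0.291%). Their median FPKM was 11.1, 9.17 and 11.5 in the same order. Of them, 149 reached FPKM 5 in every library. Another 30 passed the threshold through 1 library alone, the remaining libraries averaging under 5, and 15 of these 30 differed 2-fold in some comparison. Because the rule used these same levels, counts over the members are descriptions. Just inside the threshold lay Rps13-ps2 (mean FPKM 5.06), Gm12070 (5.07) and Gm12251 (5.12); just outside lay Rpl17-ps5 (4.98), C130030K03Rik (4.98) and Gm12112 (4.97). The median pseudogene was 499 bases long and had 121 reads in the WT library, and 67 had fewer than 50 reads in at least 1 library.

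The highest steady values belonged to copies of ribosomal and mitochondrial genes. Rpl17-ps10, a copy of the large-subunit gene Rpl17, had FPKM 152 in WT, 139 in PS19 and 158 in the Zbp1+- library. Rpl17-ps3, from the same parent, had 93.2, 74.6 and 105. The 3 libraries lay close together for both. Mpc1-ps, a copy of the gene for a mitochondrial pyruvate carrier subunit, had FPKM 84.1, 89.7 and 101. Rps10-ps2 had 83.6, 71.1 and 111. The ATP synthase copies Gm10221 (parent Atp5l) and Gm10039 (Atp5g1) had 89.8, 60.7 and 78.5, and 87.7, 68.5 and 68.6. None of these 6 differed 2-fold between any 2 libraries.

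In 10 of the 161 families (a parent with all processed copies that match it), the copies held more than 50% of the reads in every library. Rps10, a small-subunit gene, had 82, 70 and 38 reads in the WT library, PS19 and the Zbp1+- library against 786, 654 and 936 on its copies, so that its share of the family was 9.45%, 9.67% and 3.90%. Rpl17 held 24.1%, 21.3% and 26.0% of its family and Mpc1 36.6%, 40.0% and 31.7%. The others were Gstp2, Lsm5, Ndufa12, Rpl21, Rpl24, Ube2c and Ube2v1. Several of these parents had few reads: Gstp2 51, 4 and 4, Lsm5 12, 17 and 11, Rpl24 24, 25 and 23, Ube2c 6, 10 and 12, and Ube2v1 16, 18 and 9. Of all families, 4 had fewer than 50 reads in a library. Across all families the median share of the parent was 92.4%, 91.6% and 91.0%.

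A pseudogene was counted as higher or lower in a comparison when log2(FPKM + 1) differed by at least 1, a 2-fold difference on that scale. In PS19 against WT, 8 pseudogenes were higher (4.06%, against 1.27% of the 8139 genes with mean FPKM of at least 5) and 13 were lower (6.60%, against 0.491%). The median difference was -0.17 over the members and -0.09 over all genes, with 137 pseudogenes (69.5%) below 0 against 62.8% of all genes. In the Zbp1+- library against PS19, 21 were higher (10.7%, against 2.8%) and 8 lower (4.06%, against 3.26%), with medians of 0.20 and 0.13. In the Zbp1+- library against WT, 19 were higher (9.64%, against 1.57%) and 17 lower (8.63%, against 1.77%), with medians of 0.04 and 0.03. These comparisons share libraries. The split of higher to lower depended on the scale. With FPKM rescaled to TPM, which sums to the same total in each library, it was 11 to 11 in PS19 against WT (all genes 1.99% and 0.381%), 17 to 14 in the Zbp1+- library against PS19 (1.41% and 5.9%) and 17 to 23 against WT (1.18% and 3.16%), with member medians of -0.06, -0.07 and -0.11. With reads per total reads it was 8 to 13 (1.35% and 0.43%), 18 to 9 (1.55% and 4.28%) and 14 to 21 (0.971% and 2.56%), with medians of -0.14, 0.02 and -0.10. The sign of the member median in the comparisons with the Zbp1+- library thus depended on the scale. In all, 48 pseudogenes (24.4%, against 7.45% of all genes at that floor) differed 2-fold in some comparison and 149 in none. The Zbp1+- library was 2-fold above both others for 15 and below both for 5, WT was above both for 10 and below both for 6, and PS19 was above both for 0 and below both for 2. These patterns were not counted over all genes, so whether they are particular to the pseudogenes was not tested.

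**Figure D1:**
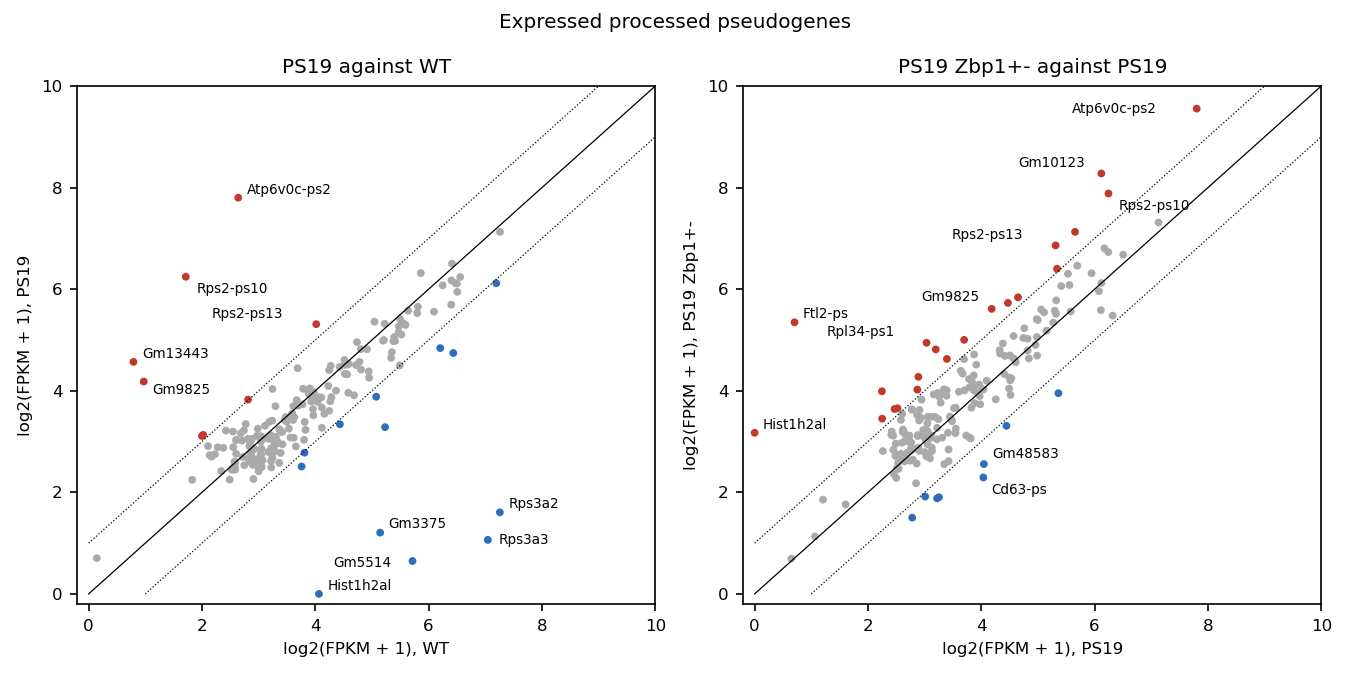
Levels of the 197 pseudogenes as log2(FPKM + 1), PS19 against WT (left) and the PS19 Zbp1+- library against PS19 (right). Each point is 1 pseudogene, the solid line marks equal levels and the dotted lines a difference of 1, red points lie at least 1 above and blue points at least 1 below equality; Atp6v0c-ps2 and Rps2-ps10 lie in red in both panels, while Rps3a2 and Rps3a3 lie far below the line on the left.

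The largest increase in PS19 over WT was that of Atp6v0c-ps2. It had 42 reads in the WT library, 1785 in PS19 and 5524 in the Zbp1+- library, or FPKM 5.24, 222 and 751. WT was low, PS19 high and the Zbp1+- library highest. Per implied library size, the ratio was 42.4 (95% interval 31.2 to 59.1) for PS19 over WT and 3.38 (3.20 to 3.57) for the Zbp1+- library over PS19. The latter difference in log2(FPKM + 1) was 1.75 as deposited, 1.47 in TPM and 1.56 per total reads. Both rescalings thus moved it by more than its counting error. The parent Atp6v0c went the other way, with 2629, 1253 and 227 reads. Its share of the pair was thus 98.4% (97.9 to 98.9), 41.2% (39.5 to 43.0) and 3.95% (3.46 to 4.48). Copy and parent together had 2671, 3038 and 5751 reads. Per implied library size this is a ratio of 1.13 (1.08 to 1.20) for PS19 over WT and 2.07 (1.98 to 2.16) for the Zbp1+- library over PS19. The last ratio would likewise be lower per total reads. As printed above, the base at position 111 is the 1 difference by which a read inside the aligned run can be placed.

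Both Rps2 copies showed the same order of libraries. Rps2-ps10 (chromosome 18, within an intron of Pde6a on the opposite strand) had 38 reads in the WT library, 1248 in PS19 and 3591 in the Zbp1+- library. The ratio was 32.8 (23.8 to 46.5) for PS19 over WT. Rps2-ps13 had 231, 590 and 1609 reads, with ratios of 2.55 (2.19 to 2.98) for PS19 over WT and 2.98 (2.71 to 3.28) for the Zbp1+- library over PS19. Rps2 itself had 4555, 1943 and 173 reads. With all 36 copies that had reads, the family summed to 5045, 3987 and 5588, and the parent's share was 90.3%, 48.7% and 3.10%. The family total thus stood at 0.789 (0.756 to 0.822) of WT in PS19 and at 1.21 (1.16 to 1.26) of WT in the Zbp1+- library.

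Gm9825, a copy of the splicing gene Rnps1, had 14 reads in the WT library, 250 in PS19 and 639 in the Zbp1+- library. Its ratio was 17.8 (10.4 to 33.1) for PS19 over WT. Rnps1 had 1792, 1023 and 812 reads, and its share of the pair was 99.2%, 80.4% and 56.0%. The pair summed to 1806, 1273 and 1451 reads, a ratio of 0.704 (0.654 to 0.756) for PS19 over WT. The copy and the parent again ranked the libraries in opposite order. Gm13443 (chr2:35340409-35340963), a copy of Glo1 (chr17:30592866-30612659), the gene of glyoxalase, which clears the glycolytic by-product methylglyoxal, had 7 reads in the WT library, 218 in PS19 and 210 in the Zbp1+- library. WT stood apart and the PS19 and Zbp1+- libraries lay side by side, with a ratio of 31.1 (14.8 to 78.2) for PS19 over WT and 1.05 (0.866 to 1.28) for the Zbp1+- library over PS19. Glo1 had 1578, 2162 and 1622 reads, a log2 difference of 0.44 between PS19 and WT, so here parent and copy were both higher in PS19. The remaining pseudogenes counted as higher in PS19 were Rpl10a-ps1 (68, 149 and 121 reads; parent Rpl10a, a large-subunit gene), Gm9770 (42, 107 and 131; parent Ctdsp2) and Gm18588 (26, 66 and 47; parent Osbpl9).

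Of these 8, 6 had a parent on chromosome 17: Atp6v0c-ps2, Rps2-ps10, Rps2-ps13, Gm9825, Gm13443 and Rpl10a-ps1. They were 6 of the 16 pseudogenes with a parent there, against 2 of the other 181 and 1.27% of all genes. Rps2-ps10 and Rps2-ps13 share 1 parent. None of the 16 was counted as lower in any comparison. Of all genes 0.491% were lower in PS19 than in WT, and in the Zbp1+- library 3.26% than in PS19 and 1.77% than in WT. In that library 5 of the 16 were higher than in WT, against 14 of the other 181 and 1.57% of all genes. Than in PS19, 4 of the 16 were higher, against 17 of the other 181 and 2.8% of all genes. The copies themselves lay on chromosomes 6, 18, X, 2 and 1. Among the 13 parents on chromosome 17, Rps2, Atp6v0c and Rps18 were lower in PS19 than in WT by at least 1 on the log2 scale, at -1.22, -1.04 and -1.33. Rps18 had 2156, 836 and 861 reads while its copy Rps18-ps3 had 33, 50 and 55. Because the members were chosen on these libraries, the grouping is a description.

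**Figure D2:**
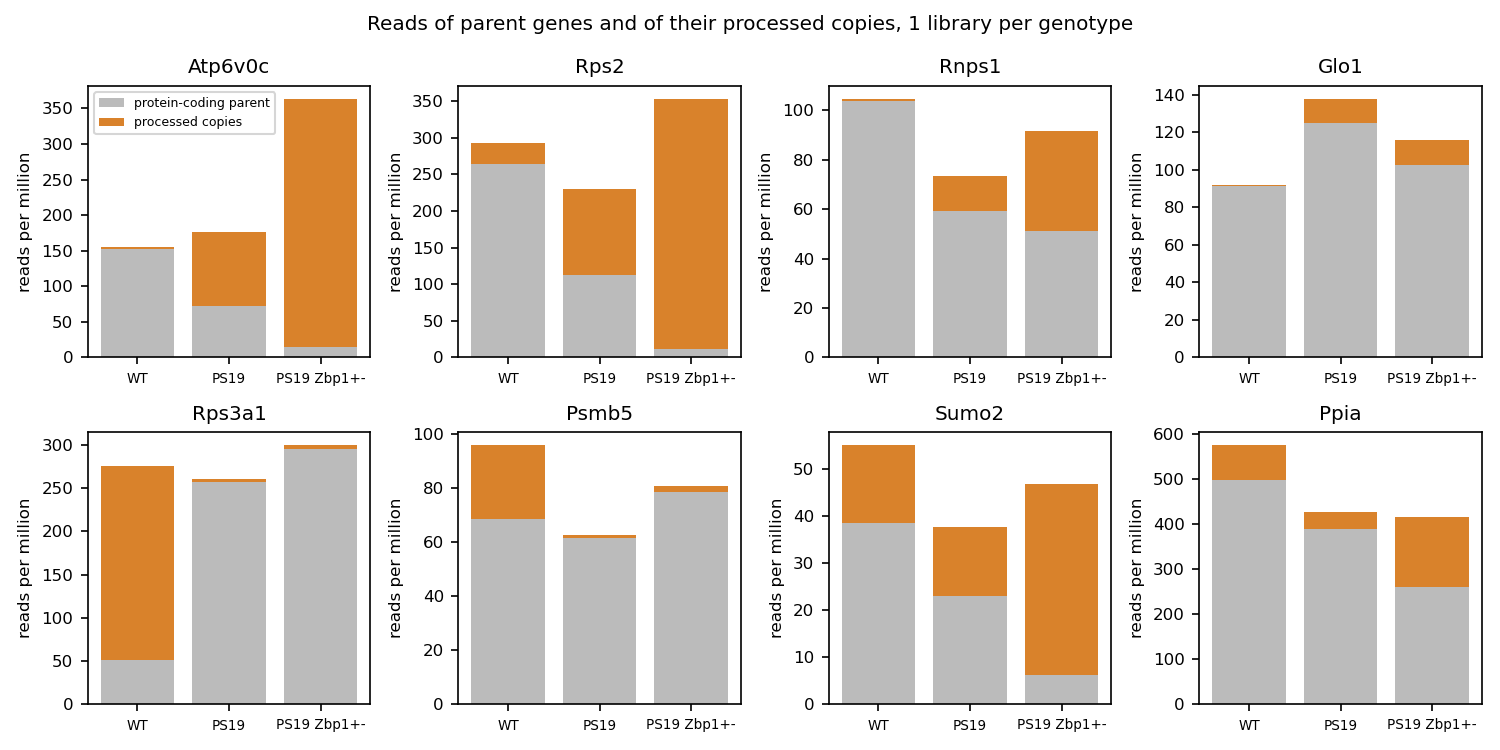
Stacked bars of reads per 1000000 of the implied library size in the WT, PS19 and PS19 Zbp1+- libraries for 8 families, with the protein-coding parent in grey and all its processed copies in orange. The grey part is smaller and the orange part larger in PS19 than in WT for Atp6v0c, Rps2 and Rnps1, and the opposite holds for Rps3a1.

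The largest decreases in PS19 belonged to copies of Rps3a1. Rps3a3 (chr13:108670603-108671397, within an intron of Pde4d on the same strand) had 1798 reads in the WT library, 15 in PS19 and 15 in the Zbp1+- library. Rps3a2 had 2077, 28 and 30 reads. WT was high and the remaining libraries were low and alike for both, with WT over PS19 at 120 (72.6 to 215) for Rps3a3 and 74.3 (51.3 to 112) for Rps3a2. Rps3a1 had 873, 4442 and 4678 reads, so its share of the family was 18.3% (17.2 to 19.4), 98.4% (98.0 to 98.8) and 98.6% (98.2 to 98.9). The whole family, with 6 copies, summed to 4765, 4512 and 4744 reads, which per library size is 0.945 (0.907 to 0.984) for PS19 over WT. WT and PS19 thus stood far apart in each copy and close together in the sum.

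Gm3375, the Psmb5 copy, had 472 reads in the WT library, 18 in PS19 and 33 in the Zbp1+- library, with WT over PS19 at 26.3 (16.4 to 44.7). Psmb5 had 1180, 1063 and 1245, a share of 71.4%, 98.3% and 97.4%. Gm5514, a copy of the lactate dehydrogenase gene Ldhb, had 272, 3 and 3 reads, and WT over PS19 was 90.8 (30.8 to 443). Ldhb had 6569, 6001 and 4774 reads. WT again stood alone for several copies with smaller differences. Rpl3-ps1 (parent Rpl3, large subunit) had 1785, 539 and 611 reads and Gm6472 (Rps7) had 817, 311 and 246. Gm1821 (parent Ubb, a polyubiquitin gene) had 614, 147 and 194. Rpl3 had 6786, 6973 and 7870 reads, Rps7 had 3052, 2863 and 3501, and Ubb had 15228, 11837 and 12916. The parents thus differed far less than their copies. Nudc-ps1 (311, 131 and 109 reads; parent Nudc, of the dynein pathway) and Gm10060 (24, 9 and 8; no parent found) were also counted as lower in PS19.

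Hist1h2al (chr13:51202727-51203065), a copy of a histone H2A gene, had 92 reads in the WT library, 0 in PS19 and 43 in the Zbp1+- library. Against a floor of 3 reads in the PS19 library it was at least 30.7-fold lower in PS19 than in WT, and at least 15.7-fold higher in the Zbp1+- library than in PS19. The closest protein-coding gene by sequence, Hist2h2aa2, had 0 reads in all 3.

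Other pseudogenes differed mainly in the Zbp1+- library, in which the choroid plexus marker sum was 10.7 against 1922 in PS19; the part of that difference in the values that follow was not tested. Ftl2-ps (chr4:125504288-125504839), a ferritin light chain copy whose annotation overlaps the microRNA gene Mir692-2, had 1 read in the WT library, 6 in PS19 and 347 in the Zbp1+- library. Its ratio was 63.2 (28.7 to 173) for the Zbp1+- library over PS19. Ferritin light chain is a subunit of the shell that stores iron. The best match, Ftl1-ps1, which was listed as protein-coding, had 30, 39 and 23 reads at 99.1% identity, and Ftl1 had 2012, 2630 and 916 at 98.7%. Ftl1 was thus lowest where its copy was highest.

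Gm10123, which is identical to Ppia, had 1229 reads in the WT library, 580 in PS19 and 2400 in the Zbp1+- library, while Ppia had 8594, 6729 and 4123. The copy was lowest in PS19 and highest in the Zbp1+- library, and the parent's share was 86.6%, 91.1% and 62.5%. Gm10241, which is identical to Sumo2 (a small ubiquitin-like modifier) and lies in an intron of Yeats2, had 272, 244 and 629 reads against 663, 396 and 98 on Sumo2. The share of Sumo2 was 69.9%, 60.7% and 13.2%. Neither copy has a base of its own in the aligned run.

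Ribosomal copies were among the others that were higher in the Zbp1+- library. Rpl34-ps1 had 79, 44 and 167 reads in the WT library, PS19 and the Zbp1+- library, a log2 difference of 1.91 from PS19. The Rpl30 copies Rpl30-ps10 (29, 49 and 149 reads) and Gm12191 (53, 72 and 171) were also highest there, while Rpl30 had 1970, 1437 and 862. Gm7666, a copy of the prohibitin gene Phb, had 36, 53 and 193 reads and Gm5454 (parent Etv1) had 122, 161 and 422. Rps4l, one of the 8 pseudogenes for which no parent passed the identity limit, had 334, 345 and 777. Also higher there than in PS19 were Gm5854 (137, 127 and 290 reads; parent Rpl7a), Gm10154 (42, 29 and 65; Rpl34), Pgam1-ps2 (65, 60 and 139; the glycolytic gene Pgam1), Gm14388 (38, 31 and 75; Acp1) and Gm1943 (25, 19 and 42; Wdr70). Tpi-rs11 (211, 129 and 276; the glycolytic gene Tpi1) and Ptges3-ps (375, 327 and 635; the co-chaperone gene Ptges3) complete the count.

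Cd63-ps was the pseudogene with the largest decrease from PS19 to the Zbp1+- library, and there copy and parent kept the same order. It lies in an intron of Hsd17b4 on chromosome 18 and had 128 reads in the WT library, 233 in PS19 and 54 in the Zbp1+- library, a log2 difference of -1.74 from PS19. Cd63, which encodes a tetraspanin of late endosomes and exosomes, had 1276, 2036 and 595. Its share hardly moved, at 90.9%, 89.7% and 91.7%. Gm48583, identical to the cold-inducible RNA-binding gene Rbm3, had 53, 59 and 17 reads beside 1197, 1257 and 587 on Rbm3. In Gm12338 (parent Cox7c, a subunit of cytochrome c oxidase) the reads were 106, 133 and 44. The smaller counts of Gm10705 (parent Ube2l3; 55, 68 and 20), Gm13577 (Hmgb1; 32, 25 and 9) and Gm10736 (Rpl41; 16, 28 and 11) were also lower there than in PS19, as was Gm4149 (Rpl37a; 62, 28 and 8).

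When parents were looked at in place of copies, fewer differed. Of 161 distinct parents, 2 (1.24%, against 1.27% of all genes) were at least 2-fold higher and 5 (3.11%, against 0.491%) lower in PS19 against WT. In the Zbp1+- library 2 (1.24%, against 2.8%) were higher and 6 (3.73%, against 3.26%) lower than in PS19, and 1 (0.621%, against 1.57%) was higher and 9 (5.59%, against 1.77%) lower than in WT. The shares over all genes are for mean FPKM of at least 5, whereas the parents had no floor, and 149 of the 161 reached that mean. Counted as reads per library size, the summed copies of a family were at least 2-fold higher in PS19 than in WT in 7 families and lower in 11, and with the parent added in 0 and 3. For the Zbp1+- library against PS19 the counts were 18 and 7 for copies, and 6 and 1 with the parent. Against WT they were 16 and 15 for copies, and 3 and 2 with the parent. These family counts used the implied library sizes only. The parent usually holds most of the reads, so the sum moves little by construction. Gapdh, a glycolytic enzyme gene with 70 copies, was an exception, with 1629, 239 and 205 reads on the parent and 2340, 796 and 958 in the family. Its copies Gm7336 (225, 182 and 269), Gm5559 (121, 75 and 123) and Gm12070 (84, 80 and 91) did not differ 2-fold between any libraries.

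**Figure D3:**
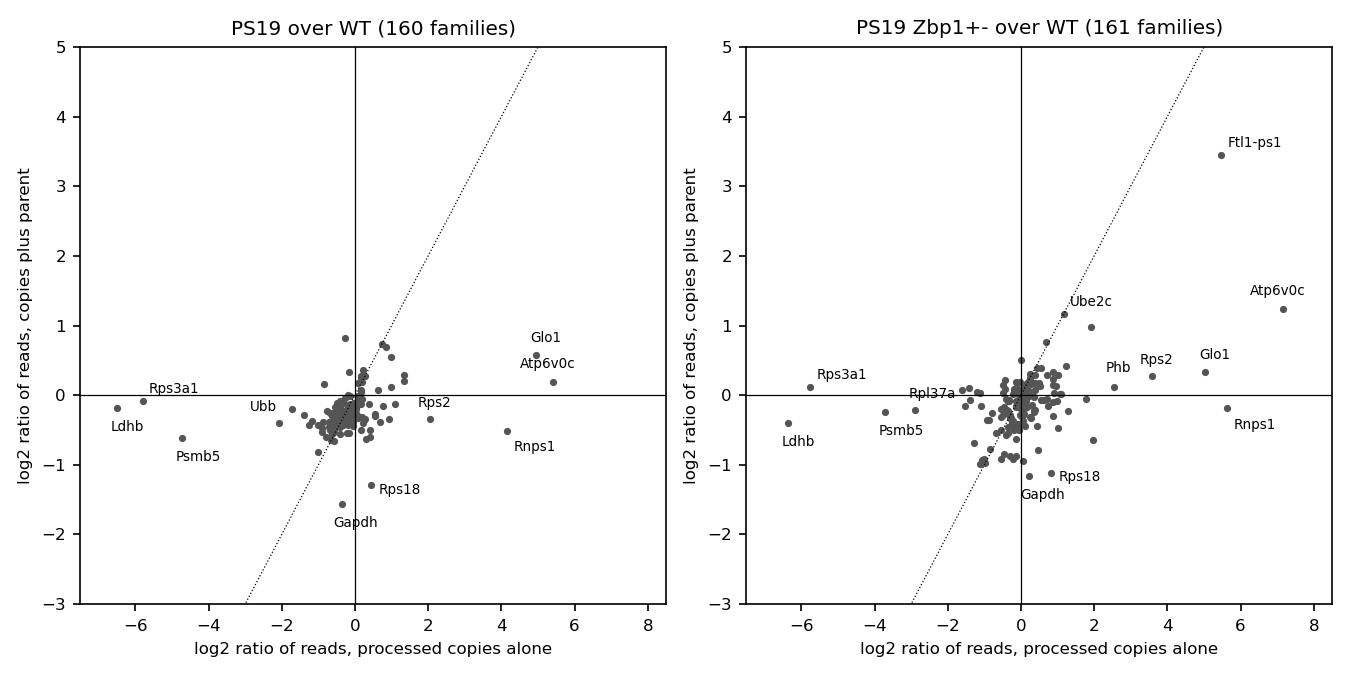
Families as log2 ratios of reads per library size, PS19 over WT (left, 160 families) and PS19 Zbp1+- over WT (right, 161 families), with the processed copies alone on the horizontal axis and copies plus parent on the vertical axis. Each point is 1 family and the dotted line marks equal ratios; on the left, Rps3a1 and Atp6v0c lie far from 0 on the horizontal axis and near 0 on the vertical axis, where their ratios are 0.945 and 1.13.

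The share of the parent ranged over at least 20 percentage points between libraries in 16 of the 161 families. Besides those above they included Rps28 (75.3%, 71.9% and 40.9%), Rpl7a (60.5%, 65.4% and 36.3%) and Rpl30 (95.3%, 90.2% and 71.3%). Gstp2 was another (22.9%, 2.61% and 2.60%), on only 51, 4 and 4 parent reads. The symbol of 54 pseudogenes gives a parent name, 50 of them with that parent in the table, and in all 50 the name was the one found by sequence. These form 45 families when only the named copies are counted, and 3 of the 45 (Atp6v0c, Rps2 and Rpl21) ranged over at least 20 points. Rpl21, a large-subunit gene, held 42.8%, 55.5% and 35.3% there. In most named families the split was steady: Rpsa held 93.8%, 93.6% and 93.5%, Rpl9 94.1%, 93.9% and 93.3%, and Rps16 88.7%, 88.2% and 87.1%.

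By the role of the parent, 67 pseudogenes came from ribosomal protein genes, and 15 of these (22.4%) differed 2-fold in some comparison, against 24.4% of all 197 and 7.45% of all genes. Their summed reads were 19122, 13282 and 18220, and their medians were -0.23 for PS19 against WT and 0.27 for the Zbp1+- library against PS19. Of 11 from ubiquitin and proteasome genes 5 differed, of 9 glycolytic copies 4, of 9 from the respiratory chain and ATP synthase 2, of 9 chromatin copies (histone and HMG genes) 2, and of 10 RNA-binding copies 1. None of the 7 placed under translation factors did, Eif4a-ps4 among them. This class was drawn by symbol and also holds copies of genes that are not translation factors, such as Tpt1-ps3. Of 4 chaperone and isomerase copies 2 differed, and of 4 cytoskeletal copies 1, Gm11223 from the tubulin-binding gene Stmn1 (160, 71 and 109 reads). The single V-ATPase copy, Atp6v0c-ps2, and the single ferritin copy, Ftl2-ps, both differed, as did 3 of the 8 without a parent. The remaining 57 came from other genes, and 11 of them (19.3%) differed. Most of these classes hold too few pseudogenes for a share to be read.

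By chromosome, the pseudogenes were spread over the autosomes and X. Against the 24.4% of all members that differed in some comparison, each count here is small. Chromosome 7 held 20, of which 4 differed in some comparison, chromosome 6 held 18 (7), chromosome 2 held 17 (3), chromosome 1 held 14 (1), and chromosomes 3 and 4 held 13 each (3 each). On chromosome 6 none was lower in any comparison, and 6 were higher in the Zbp1+- library than in PS19, Atp6v0c-ps2, Gm9825, Rpl34-ps1, Rps4l, Tpi-rs11 and Ptges3-ps. Chromosome X held 12 (5), and chromosome 13 held 8, of which 6 differed, 3 of them lower in PS19 than in WT. Chromosomes 5 and 12 held 10 and 6, and none differed. The number on a chromosome is small, so 1 or 2 pseudogenes set its count.

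**Figure D4:**
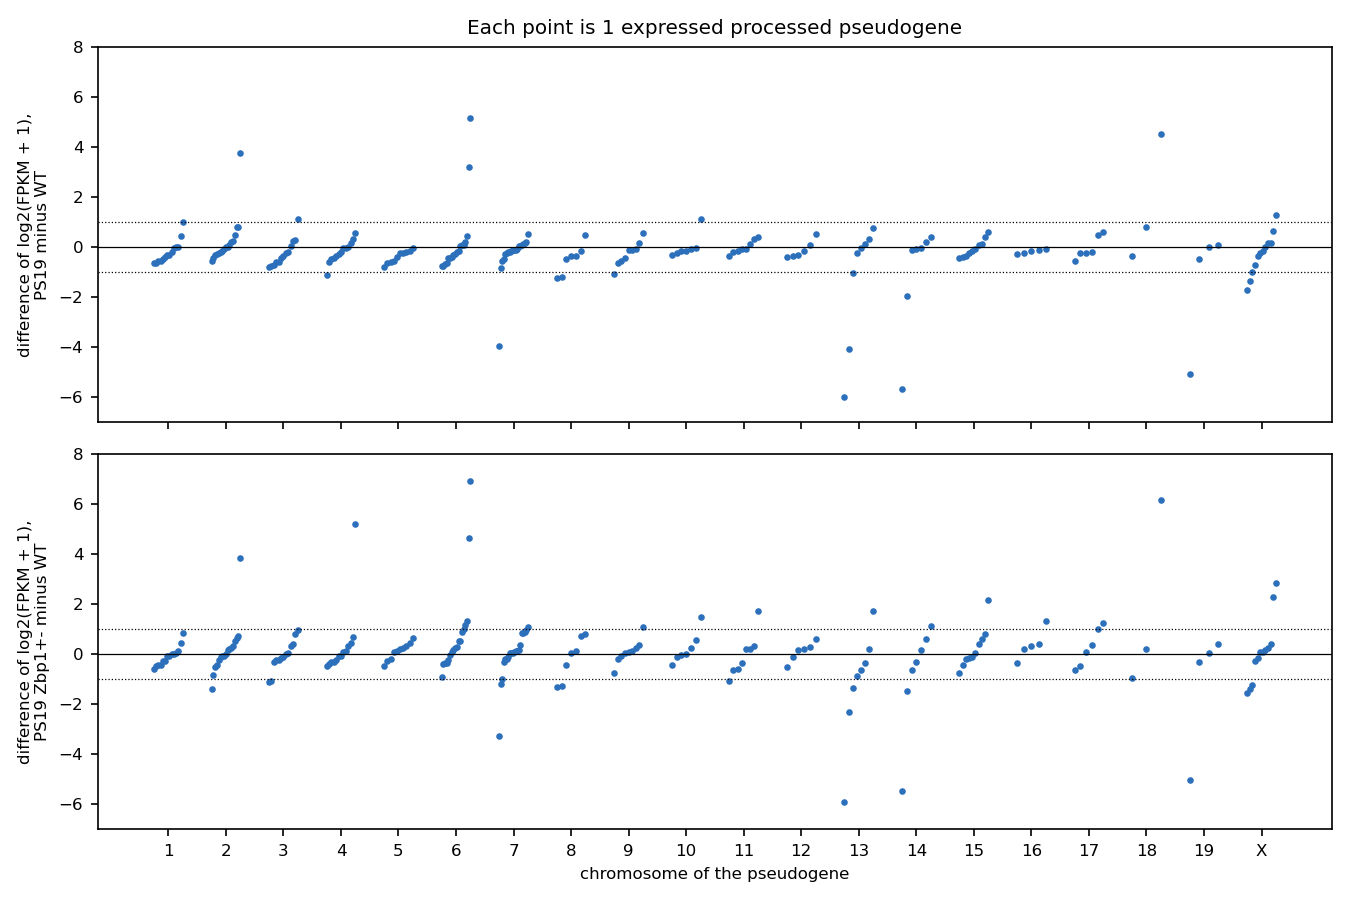
Difference of log2(FPKM + 1) for each pseudogene, sorted by size within its chromosome, PS19 minus WT (top) and PS19 Zbp1+- minus WT (bottom). The dotted lines mark 1 and -1; the points far above the lines include Atp6v0c-ps2 on chromosome 6 (5.16 and 6.91), those far below include Rps3a3 on chromosome 13 (-5.98 and -5.91), and no point of chromosomes 5 and 12 lies outside them.

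The FPKM rule used neither sequence nor position. Of the 189 with a parent, the longest open reading frame was at least 95% of the parent's coding length in 130, of equal length in 83, and under 50% in 21. Rps2-ps10, Rps2-ps13, Gm13443, Rps3a3, Rpl17-ps10 and Mpc1-ps had frames of 100% of that length, while Gm9825 had 63.7% and Gm3375 had 57.4%. Frames still open at the end of the copy were counted. Only lengths were compared, so whether a frame is that of the parent was not tested. By position, 126 overlapped no other gene, 61 lay in an intron of another gene (25 on the same strand and 36 on the opposite) and 10 overlapped an exon of another gene. Of those overlapping no other gene 28 differed 2-fold in some comparison, of those in introns 15, and of those at exons 5, or 22.2%, 24.6% and 50%, against 24.4% of all members. By distinguishing windows, 13 of the 44 copies with no window of their own differed, 23 of the 99 with up to 25% and 12 of the 54 with more, or 29.5%, 23.2% and 22.2%. The 44 without any such window took 7651 reads in the WT library, 6320 in PS19 and 9265 in the Zbp1+- library.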

How the data were processed

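The data were 3 hippocampal RNA-seq libraries, 1 per genotype. The authors deposited FPKM per gene. Per the submitters' processing notes, Trim Galore 0.6.5, STAR 2.5.3a, featureCounts 2.0.4 and build mm39 were named, without roles. The deposited positions match GENCODE M21 (GRCm38) for 98.3% of the gene IDs found there and for 193 of the 197 pseudogenes. Coordinates are printed as deposited. Strand and multiple-match settings are not given in the sources used here. Per the labels' protocols, TRIzol was used for extraction and a NEB Next Ultra RNA kit for library preparation.

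FPKM times gene length gave whole reads for 100% of values within 0.01 reads, with implied library sizes of 17253479, 17287957 and 15826984. In the Zbp1+- library this size was below its 17109734 recovered reads, while in WT and PS19 it was above theirs. The size behind the deposited FPKM is thus not the total of recovered reads, and how it was set is not given in the sources used here. With 1 library per genotype no count test was run. Differences are of log2(FPKM + 1), with a pseudocount of 1, which understates the change of low genes. Read ratios per implied library size and shares have exact Clopper-Pearson 95% intervals, for counting error only. With total reads in place of the implied sizes, every ratio of the Zbp1+- library over WT or PS19 would be lower. Shares within a library do not depend on its size. A count of 0 was replaced by 3 reads. Parents were found with BLAST 2.17.0 against protein-coding GENCODE M21 transcripts. Gm5514 has a gene length of 306 in the table and a transcript of 1002 bases in GENCODE M21. Software was scipy 1.17.1, pandas 2.3.3, numpy 2.4.6 and matplotlib 3.10.9 under Python 3.11.15, and the scripts were tested on simulated data.

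The named pseudogenes were taken from the 10 highest by mean FPKM, the 5 largest increases and decreases per comparison, those whose symbol gives a parent, and those next to the threshold; others of the 48 that differed were named after their values were seen. The members and lists were chosen with earlier results of these data known. Alternatives changed the FPKM floor, fold, pseudocount, scaling and family rule. A pseudogene among the largest decreases, and some sequences, are not reported here.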

Additional observations from a re-analysis of the deposited data

How the results depend on the processing

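The counts depended on the floor and on the fold asked for. With mean FPKM of at least 1 (555 pseudogenes), PS19 against WT gave 22 higher and 24 lower (3.96% and 4.32%, against 2.5% and 0.716% of all genes at that floor), the Zbp1+- library against PS19 55 and 35 (9.91% and 6.31%, against 2.91% and 5.55%), and against WT 50 and 44 (9.01% and 7.93%, against 2.21% and 3.07%). With FPKM of at least 5 in every library (149) the counts were 3 and 6 (all genes 0.594% and 0.318%), 11 and 2 (2.43% and 1.7%), and 10 and 8 (1.1% and 0.718%). Over the 197, they were 15 and 32 (all genes 4.13% and 3.71%), 48 and 16 (12.2% and 7.09%), and 36 and 30 (7.95% and 5.9%) at 1.5-fold, and 4 and 5 (0.369% and 0.0737%), 3 and 0 (0.184% and 0.86%), and 8 and 5 (0.209% and 0.541%) at 4-fold. The 8 lower in the Zbp1+- library against PS19 became 3 of 104 at mean FPKM of at least 10 (all genes 2.89%), 5 with at least 50 reads over both libraries and 14 in TPM (all genes 5.9%). Families whose parent share ranged over 20 points were 3 by symbol, 16 by sequence at 95% identity and 6 by FPKM. No value that was followed changed sign past the threshold. The rescaling moved the median of all genes from -0.09, 0.13 and 0.03 to 0.03, -0.14 and -0.12 in TPM and to -0.06, -0.04 and -0.11 per total reads. Summing copy and parent was chosen after seeing the data. Across the alternatives for the member counts and the parent share, 39 values stayed and 29 moved by over 1.5 times. Of the other values, mostly differences of single named pseudogenes, 280 stayed and 38 moved by more than their counting error or, for counts, by over 1.5 times. Differences of Hist1h2al from PS19 could not be counted as moved, because 0 reads leave the counting error without a limit. For PS19 minus WT it went from -4.06 to -7.31 with a pseudocount of 0.1. Depth limits most the 67 pseudogenes with fewer than 50 reads in a library. No paired analysis was possible because each genotype has 1 library.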

Other observations

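Below the mean FPKM of 5, several processed pseudogenes differed in the same families. Gm6311, an Rps2 copy on chromosome 13, had 3 reads in the WT library, 47 in PS19 and 130 in the Zbp1+- library, the order seen in Rps2-ps10 and Rps2-ps13. Gm45855, another Rps2 copy, on chromosome 8, had 98, 58 and 1, the order of Rps2 itself. In other families, Gm44126 (parent Uxs1) had 30, 87 and 5 reads, Gm5900 (Lamtor3) had 2, 3 and 46, and Gm12892 (Ckb) had 25, 21 and 117. These were picked for their differences and are values only.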
